A study of Mus musculus with 12 samples.

Results

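The 10 genes of an angiogenic set were described here: the 5 vascular endothelial growth factor (VEGF) family ligands *Vegfa*, *Vegfb*, *Vegfc*, *Vegfd* and *Pgf*, the 3 angiopoietins *Angpt1*, *Angpt2* and *Angpt4*, the angiopoietin-like factor *Angptl4*, and the receptor-type phosphatase *Ptprb*. They were chosen by name, with earlier results of these data known, as 10 of the 54352 gene symbols in the table. Counts and changes of the 10 set beside those of all genes are therefore descriptions and no test of the set. All 10 passed the filter on low counts in each comparison. They were measured in primary adventitial fibroblasts (mesenchymal cells from the outer layer of arteries) grown from wild-type (WT) C57Bl/6 mice labelled as 14 weeks old. The ascending cultures came from the aortic root and ascending aorta and the descending cultures from the descending thoracic aorta. Cultures of both sites received either solute control or mouse TGFβ at 10 ng/mL for 48 h, which gave 4 groups of 3 libraries. The labels place the libraries in a single batch. No transgene was used, and the cells were studied apart from the vessel wall and after passage in culture, which limits them as a model of the adventitia. The labels do not say whether the 3 libraries of a group came from separate animals, so the p-values measure the spread between these libraries, which may be technical.

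VEGF ligands act on receptor tyrosine kinases of endothelial cells. *Vegfa* is the main driver of new blood vessels and of vascular permeability, *Vegfc* and *Vegfd* are best known as lymphatic growth factors, and *Vegfb* and *Pgf* bind the receptor encoded by *Flt1*. Angiopoietin 1 activates the receptor Tie2, encoded by *Tek*, and stabilizes vessels, angiopoietin 2 often opposes it, and *Angpt4* encodes a further Tie2 ligand. *Ptprb* encodes vascular endothelial protein tyrosine phosphatase, which removes phosphate from Tie2. In the vessel wall, adventitial fibroblasts lie around the small vessels that feed the wall and can supply such ligands. TGFβ is a cytokine that activates fibroblasts through SMAD transcription factors.

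The libraries held between 16250126 and 23892943 counts on genes. Levels are given as normalized CPM, a count relative to the scaled total of its library, and 3 counts were taken as the floor of a library, at 0.117 to 0.207 normalized CPM. These floors reflect counting error alone, because no molecular identifiers are named for the libraries and copies made by PCR count as separate reads. The descending control replicate 3 stood apart, with 11.02% of its counts on mitochondrial genes against 0.703 to 1.03% in the other 11 libraries, and with counts on 13031 genes against 19337 to 20931. Tests that use it are given with and without it, which leaves 2 descending controls in the second case. The 8 fibroblast markers summed to 12408 to 24863 normalized CPM in every group, while the 11 endothelial markers summed to 9.25 to 28.7. Of these, *Tek* was the highest in 11 libraries, at 3.60 to 25.7 normalized CPM, and *Erg* in ascending TGFβ replicate 3, at 5.26 against 4.04 for *Tek*. *Esam*, *Kdr*, *Vwf* and *Egfl7* reached at most 2.00, 1.61, 1.05 and 1.01 normalized CPM and *Pecam1*, *Cdh5* and *Emcn* at most 0.300, 0.260 and 0.157, while *Tie1* and *Cldn5* had 0 counts in every library. The 6 macrophage markers summed to 357 normalized CPM in ascending control replicate 2 and to 14.0 to 57.7 in the other 11 libraries. The 5 adipocyte markers summed to 75.7 to 113 in descending and 4.09 to 14.7 in ascending controls, and the 4 mesothelial markers, with *Wt1* at 0 counts in both, to at most 1.69 in descending and 30.0 to 40.0 in ascending controls. The part of these cells in the differences between sites was not tested, and in cultures of mixed cells, fewer cells of a type and less RNA per cell cannot be told apart.

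TGFβ moved all 10 genes in ascending fibroblasts. *Vegfa*, *Pgf*, *Angpt1*, *Angpt4*, *Angptl4* and *Ptprb* rose, against 28.2% of all genes tested, and *Vegfb*, *Vegfc*, *Vegfd* and *Angpt2* fell, against 27.6%. In both directions together 55.8% of all genes passed the test, which was an adjusted p under 0.05 in edgeR's quasi-likelihood test, adjusted over all genes by the Benjamini-Hochberg method. The median absolute log2 fold change was 1.299 over the 10 genes and 0.28 over all genes tested. In descending fibroblasts *Vegfa*, *Vegfc* and *Ptprb* rose and *Vegfd* and *Angpt2* fell, 5 of the 9 genes that passed the filter on low counts in both groups (all but *Pgf*), against 8.07% of all genes (3.59% upward and 4.48% downward). All 10 passed without descending control replicate 3, 7 upward and 3 downward, against 52.9% of all genes (26.6% upward and 26.3% downward). The median absolute change in descending fibroblasts was 1.02 over the 10 genes and 0.31 over all genes without that library. The estimated responses of the 2 sites, which share no library, had the same sign for 9 genes without it. The exception was *Vegfc*.

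Between the sites, 3 of the 10 genes differed in control cultures, against 2.65% of all genes tested. *Pgf*, which entered that comparison only through the ascending group, was not among the 3. *Vegfc* was higher in ascending and *Angpt1* and *Angpt2* in descending controls. *Vegfa* was also higher in descending controls once descending control replicate 3 was left out, giving 4 genes against a background of 31.6%. With that library kept, leaving out any one of the other 5 left at most 1 of these calls. In TGFβ-treated cultures 7 genes differed against 36.3% of all genes (18.1% upward in ascending relative to descending fibroblasts and 18.2% downward), with *Vegfc*, *Angpt4* and *Angptl4* higher in ascending and *Vegfa*, *Pgf*, *Angpt1* and *Ptprb* higher in descending fibroblasts. This comparison does not use the descending controls. The site by TGFβ interaction, which is the ascending minus the descending log2 response, passed for *Vegfc*, *Angpt2* and *Ptprb*, against 0.806% of all genes (0.321% positive and 0.485% negative). It passed for these and for *Vegfa* and *Angpt4* without descending control replicate 3, 5 of 10 against 13.5% (6.07% positive and 7.40% negative). The site and treatment comparisons share libraries and are not independent of each other or of the interaction.

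**Figure D1:**
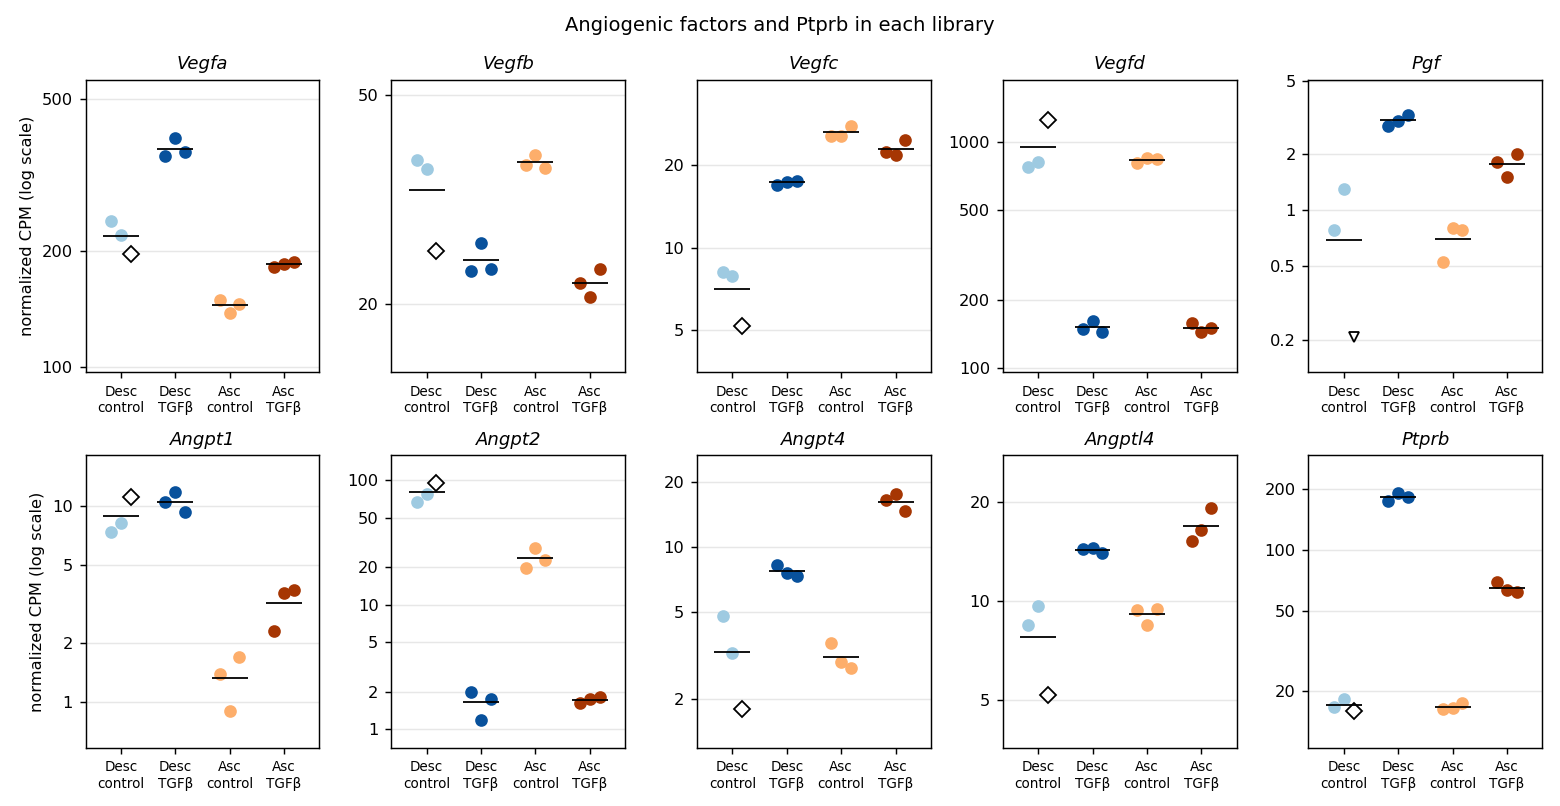
Normalized CPM, on log axes that differ between panels, of the 10 genes in each of the 12 libraries, grouped by site (Desc, descending; Asc, ascending) and treatment. Points are libraries, lines are group means, the open diamond is descending control replicate 3, and the downward triangle is a count of 0 drawn at the floor. *Angpt2* drops in the TGFβ libraries of both sites, and *Ptprb* reaches 176 to 192 in the descending and 61.8 to 69.6 in the ascending TGFβ libraries.

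**Figure D2:**
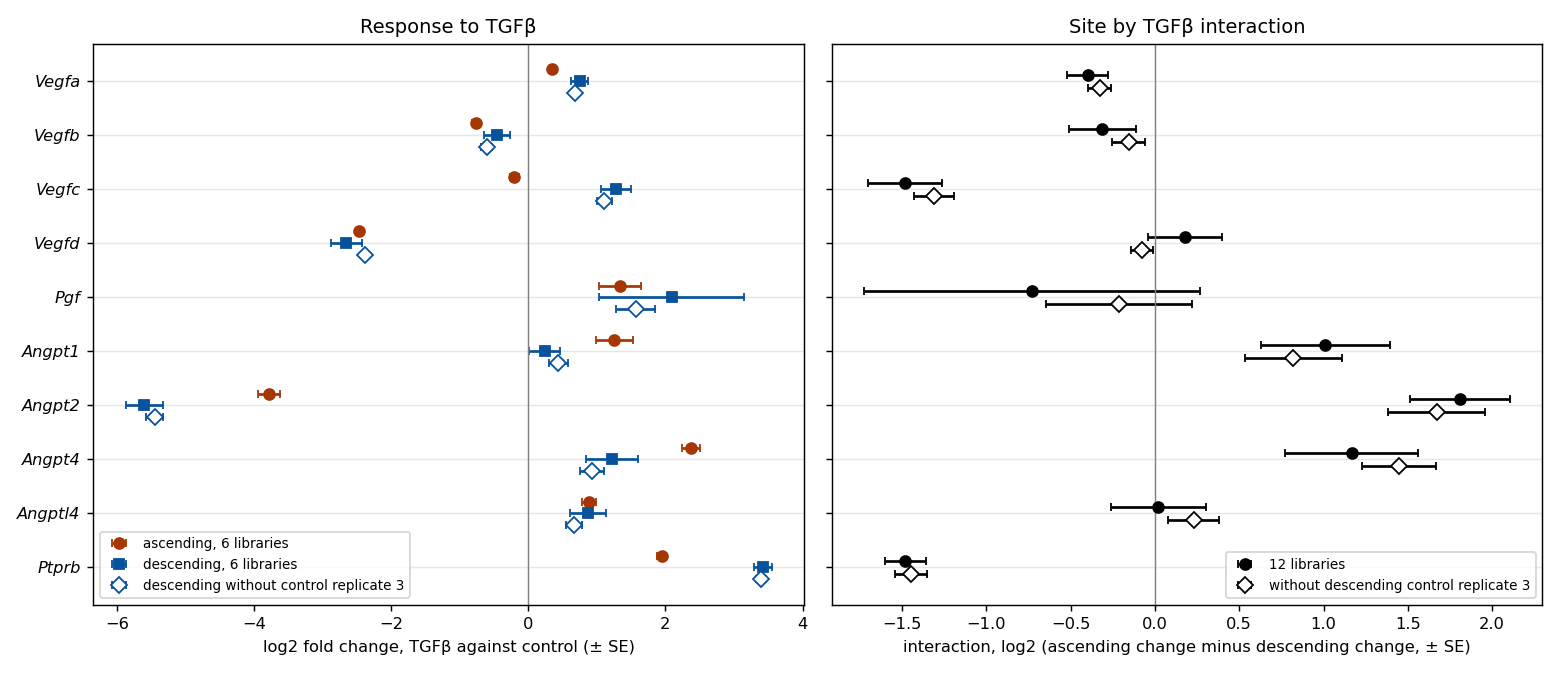
Log2 fold change of the 10 genes with TGFβ against control at each site (left) and the site by TGFβ interaction (right), from edgeR. Points are estimates and bars standard errors, and open diamonds leave out descending control replicate 3. *Vegfc* is the gene whose 2 responses lie on opposite sides of 0, and the descending standard errors shrink without that library. With all libraries kept, the descending response and the interaction of *Pgf* are drawn as estimates and not read as tests.

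The 3 promoter sequences show what lies before the start sites of ligands that rose with TGFβ at one or both sites. RefSeq (GRCm38.p6) promoters were matched for 6 of the 10 genes, *Vegfa*, *Vegfb*, *Vegfc*, *Vegfd*, *Pgf* and *Angpt4*. No promoter is shown for *Angpt1*, *Angpt2*, *Angptl4* and *Ptprb*. The 250 bases upstream of the start are printed 5′ to 3′ on the strand of the gene for *Vegfa* (the more 5′ of 2 RefSeq starts) and *Vegfc*, the VEGF ligands that rose in descending fibroblasts with all libraries kept, and for *Angpt4*, the angiopoietin that rose most in ascending fibroblasts. Capitals mark matches to the SMAD box, GTCTG on either strand.
Vegfa, chr17:46032378-46032627, minus strand: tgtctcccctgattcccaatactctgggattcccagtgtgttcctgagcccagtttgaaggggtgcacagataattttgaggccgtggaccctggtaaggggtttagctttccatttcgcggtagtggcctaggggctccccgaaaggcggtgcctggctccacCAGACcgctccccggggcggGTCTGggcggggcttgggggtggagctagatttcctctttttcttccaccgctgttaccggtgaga
Vegfc, chr8:54077282-54077531, plus strand: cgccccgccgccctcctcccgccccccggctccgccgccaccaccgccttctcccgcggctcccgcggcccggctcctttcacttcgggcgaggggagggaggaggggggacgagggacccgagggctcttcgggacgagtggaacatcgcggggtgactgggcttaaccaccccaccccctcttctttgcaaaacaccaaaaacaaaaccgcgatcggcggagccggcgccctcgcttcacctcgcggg
Angpt4, chr2:151910957-151911206, plus strand: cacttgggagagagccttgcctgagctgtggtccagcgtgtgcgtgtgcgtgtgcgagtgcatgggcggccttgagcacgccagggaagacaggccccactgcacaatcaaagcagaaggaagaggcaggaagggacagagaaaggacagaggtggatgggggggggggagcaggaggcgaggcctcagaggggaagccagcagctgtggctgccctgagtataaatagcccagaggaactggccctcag
In the promoter window of 250 bases before to 50 bases after the start, *Vegfa* held 2 matches to the SMAD box, and *Vegfc* and *Angpt4* held 0. Of 32851 promoters of that length, 49.6% held at least 1. None of the 3 windows held ACGTG, the core of the hypoxia response element, or TGANTCA, an AP-1 site, searched on both strands and found in 19.6% and 7.81% of promoters. The window of the other RefSeq start of *Vegfa*, not printed here, held 2 matches to the SMAD box and 1 to ACGTG. The *Vegfc* sequence was rich in guanine and cytosine (GC), at 71.6% against a median of 52.4% over all promoters, with 30 CpG dinucleotides against a median of 6. GC content was 59.2% before *Vegfa* and 62.4% before *Angpt4*. A match is a description of letters, and its absence says nothing about a factor.

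*Vegfa*, on chromosome 17 of GRCm38 from 46016993 to 46032369, was higher in descending than in ascending fibroblasts and rose with TGFβ at both sites. It stood at 241, 221 and 197 normalized CPM in the 3 descending controls and at 355, 395 and 363 in the descending TGFβ libraries. In ascending fibroblasts it stood at 150, 138 and 146 in controls and at 182, 185 and 188 with TGFβ. The groups did not overlap, and the treated ascending libraries all lay below the untreated descending ones. The response was 0.75 on the log2 scale in descending fibroblasts (standard error 0.12, adjusted p = 0.0196), or 0.68 (standard error 0.05, adjusted p = 6.99e-12) without descending control replicate 3, and 0.35 in ascending fibroblasts (standard error 0.04, adjusted p = 4.31e-07). With TGFβ, *Vegfa* was 2.00-fold lower in ascending fibroblasts (log2 fold change -0.999, standard error 0.04, adjusted p = 6.10e-18). In controls the difference was -0.60 (standard error 0.12, adjusted p = 0.0707), and -0.66 (standard error 0.05, adjusted p = 2.42e-07) without descending control replicate 3. The interaction was -0.40 (standard error 0.12, adjusted p = 0.234), and -0.33 (standard error 0.07, adjusted p = 0.00104) without that library. With it kept, leaving out any one of the other 5 descending libraries moved the adjusted p of the descending response to between 0.0545 and 0.132.

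*Vegfc*, on chromosome 8 from 54077606 to 54187096, rose with TGFβ in descending fibroblasts and fell slightly in ascending ones. Controls held 8.14, 7.90 and 5.17 normalized CPM in descending and 25.5, 25.6 and 27.9 in ascending fibroblasts. With TGFβ the levels were 16.9, 17.4 and 17.5 in descending and 22.4, 21.8 and 24.6 in ascending fibroblasts. Every ascending library thus lay above every descending one, and the distance between the sites was smaller after TGFβ. The site difference was 1.90 on the log2 scale in controls (standard error 0.21, adjusted p = 0.0120) and 0.41 with TGFβ (standard error 0.08, adjusted p = 0.000128). The response was 1.28 in descending (standard error 0.22, adjusted p = 0.0217) and -0.20 in ascending fibroblasts (standard error 0.07, adjusted p = 0.0171). The interaction was -1.48 (standard error 0.22, adjusted p = 0.0155). Without descending control replicate 3, where *Vegfc* was lowest, the site difference in controls was 1.73, the descending response 1.11 and the interaction -1.31, with adjusted p of 4.61e-09, 1.06e-09 and 1.80e-08. With it kept, leaving out any other single library gave adjusted p of 0.0619 to 0.128 for the descending response, 0.0533 to 0.110 for the control difference and 0.0173 to 0.0715 for the interaction, and the ascending fall missed the threshold without ascending control replicate 3 (0.0880) or ascending TGFβ replicate 1 (0.0563) or 2 (0.0816). The mesothelial marker sum was likewise higher in both ascending groups, at 16.3 to 23.1 against 0.613 to 1.14 normalized CPM with TGFβ, and its part in the level of *Vegfc* was not tested.

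*Vegfd*, on chromosome X from 164373378 to 164402650, was the VEGF ligand with the highest level per length of exon in controls and fell more than 5-fold at both sites. Its controls held 775, 820 and 1255 normalized CPM in descending and 805, 854 and 843 in ascending fibroblasts. TGFβ libraries held 149, 162 and 145 in descending and 158, 145 and 150 in ascending fibroblasts. The sites overlapped in both treatments, and the highest control was descending control replicate 3. The response was -2.47 on the log2 scale in ascending (5.54-fold, standard error 0.04, adjusted p = 9.79e-18) and -2.65 in descending fibroblasts (6.28-fold, standard error 0.23, adjusted p = 0.00276), or -2.39 (5.23-fold, standard error 0.05, adjusted p = 2.05e-25) without that library. The interaction was 0.18 (standard error 0.22, adjusted p = 0.737), and -0.08 (standard error 0.06, adjusted p = 0.508) without it. A p above the threshold does not show that the responses were alike.

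*Vegfb* and *Pgf* completed the ligands. *Vegfb*, on chromosome 19 from 6982473 to 6987651, stood at 36.9, 38.4 and 36.3 normalized CPM in ascending controls and at 21.9, 20.6 and 23.3 with TGFβ, a fall of 1.70-fold (log2 fold change -0.77, standard error 0.06, adjusted p = 1.23e-08). In descending fibroblasts it stood at 37.6, 36.1 and 25.2 in controls and at 23.1, 26.1 and 23.3 with TGFβ. The ascending groups were separate, while descending control replicate 3 overlapped the treated libraries. The descending log2 fold change of *Vegfb* was -0.45 (standard error 0.19, adjusted p = 0.216), and -0.61 (standard error 0.08, adjusted p = 1.37e-07) without that library. *Pgf*, on chromosome 12 from 85166635 to 85177790, was scarce, with 20, 30 and 0 counts in descending controls and 56, 56 and 69 with TGFβ. It had 12, 16 and 16 counts in ascending controls and 35, 32 and 41 with TGFβ, and treated libraries exceeded controls at both sites. In ascending fibroblasts *Pgf* rose by 1.34 on the log2 scale (standard error 0.30, adjusted p = 0.00123). In descending fibroblasts it rose by 1.57 (standard error 0.28, adjusted p = 2.89e-05) without the library at 0 counts. With that library *Pgf* entered the descending test only through the treated group and the control test only through the ascending group, so no test of these is given. The interaction of *Vegfb* was -0.31 (standard error 0.20, adjusted p = 0.580), and -0.16 (adjusted p = 0.356) without descending control replicate 3. With 12 libraries, *Pgf* entered the interaction without all descending controls passing the filter, so no test of it is given. Without descending control replicate 3 the interaction of *Pgf* was -0.22 (adjusted p = 0.828).

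The make-up of the VEGF family shifted with TGFβ. On the scale of CPM per kb of exon, which corrects for gene length, *Vegfd* made up 83.3% ± 5.10 (SD, n = 3) of the summed family in descending and 83.6% ± 0.579 in ascending controls. With TGFβ its share was 36.5% ± 0.620 in descending and 48.4% ± 1.26 in ascending fibroblasts. The share of *Vegfa* was 11.4% ± 3.13 in descending and 8.15% ± 0.521 in ascending controls, and 50.04% ± 0.488 and 33.4% ± 1.04 with TGFβ. *Vegfa* was thus the largest share in every treated descending library, and *Vegfd* in every treated ascending one. Among descending controls, replicate 3 held 89.1% *Vegfd* and 7.85% *Vegfa*. Replicates 1 and 2 held 79.5 and 81.4% *Vegfd* and 13.9 and 12.3% *Vegfa*. *Vegfc* made up 0.651% ± 0.252 and 2.59% ± 0.121 of the family in descending and ascending controls, and 4.09% ± 0.209 and 7.22% ± 0.369 with TGFβ. The summed family level was 469 ± 100.1 CPM per kb in descending controls, where replicate 3 was the highest at 585, and 173 ± 9.62 with TGFβ. In ascending fibroblasts it was 414 ± 10.0 in controls and 129.6 ± 3.40 with TGFβ (SD, n = 3).

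**Figure D3:**
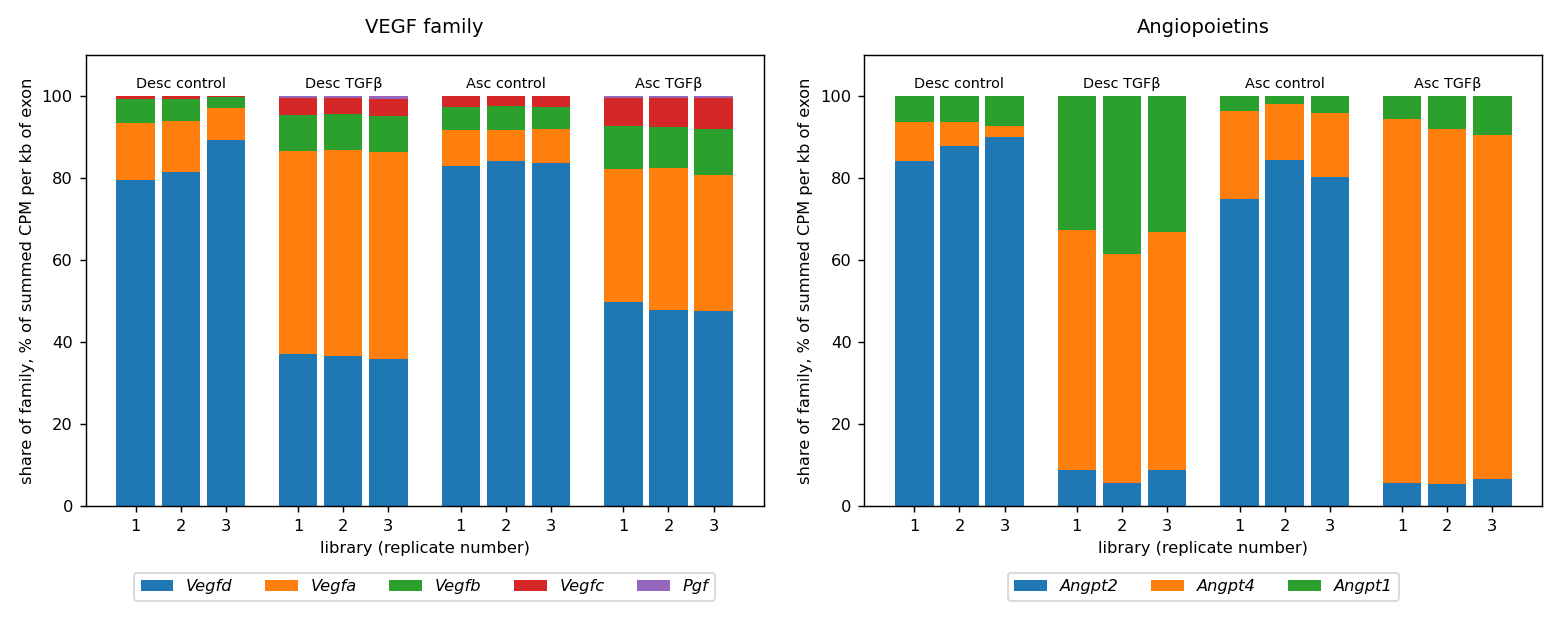
Share of each gene in the summed level of its family, in percent of CPM per kb of exon, in each library. *Vegfd* falls from 83.3% and 83.6% of the VEGF family in descending and ascending controls to 36.5% and 48.4% with TGFβ, and among angiopoietins *Angpt2* gives way to *Angpt4*, with *Angpt1* at 34.8% in the treated descending group.

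*Angpt2*, on chromosome 8 from 18690263 to 18741562, had the largest response of the 10 genes at both sites. It stood at 67.5, 77.9 and 94.3 normalized CPM in descending controls and at 1.99, 1.19 and 1.75 with TGFβ. Ascending controls held 19.8, 28.8 and 22.9, and treated ascending libraries 1.62, 1.75 and 1.80. The controls of the sites were separate while the treated groups overlapped, at 22 to 39 counts per library in all 6. The fall was 48.6-fold in descending (log2 fold change -5.60, standard error 0.27, adjusted p = 0.000905) and 13.8-fold in ascending fibroblasts (-3.78, standard error 0.16, adjusted p = 3.04e-12). Ascending controls were 3.35-fold below descending controls (log2 fold change -1.74, standard error 0.21, adjusted p = 0.0149), and the difference with TGFβ was 0.07 (standard error 0.27, adjusted p = 0.878). The interaction was 1.81 (standard error 0.30, adjusted p = 0.0200). The descending response, the control difference and the interaction without descending control replicate 3 were -5.45, -1.60 and 1.67, with adjusted p of 2.46e-25, 7.20e-08 and 0.000167. With it kept, leaving out one other library gave adjusted p of 0.0485 to 0.134 for the control difference and 0.0243 to 0.0784 for the interaction. The adjusted p without ascending control replicate 2, the library with the high macrophage markers, was 0.0684 for the control difference and 0.0385 for the interaction of *Angpt2*.

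*Angpt4*, on chromosome 2 from 151911210 to 151945337, rose most in ascending fibroblasts. It stood at 3.61, 2.95 and 2.78 normalized CPM in ascending controls and at 16.5, 17.5 and 14.7 with TGFβ. Descending controls held 4.83, 3.25 and 1.79 and treated descending libraries 8.27, 7.59 and 7.33. The controls of the sites overlapped, and every treated ascending library exceeded every treated descending one. *Angpt4* rose 5.17-fold in ascending fibroblasts (log2 fold change 2.37, standard error 0.13, adjusted p = 1.18e-10). In descending fibroblasts the log2 fold change was 1.22 (standard error 0.38, adjusted p = 0.121), and 0.93 (standard error 0.17, adjusted p = 3.25e-05) without descending control replicate 3. With TGFβ, ascending fibroblasts held 2.10-fold more (log2 fold change 1.07, standard error 0.11, adjusted p = 2.01e-09). The interaction was 1.17 (standard error 0.39, adjusted p = 0.309), and 1.45 (standard error 0.22, adjusted p = 4.03e-05) without that library.

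*Angpt1*, on chromosome 15 from 42424723 to 42676977, was higher in descending than in ascending fibroblasts in both treatments. It stood at 7.32, 8.11 and 11.04 normalized CPM in descending controls and at 10.4, 11.7 and 9.32 with TGFβ. In ascending fibroblasts it stood at 1.39, 0.8996 and 1.71 in controls and at 2.30, 3.60 and 3.70 with TGFβ. Every descending library exceeded every ascending one, and the descending treatment groups overlapped. The site difference was -2.72 on the log2 scale in controls (6.58-fold, standard error 0.35, adjusted p = 0.0192) and -1.69 with TGFβ (3.24-fold, standard error 0.16, adjusted p = 5.35e-10). *Angpt1* rose 2.39-fold in ascending fibroblasts (log2 fold change 1.26, standard error 0.27, adjusted p = 0.000812). The descending log2 fold change was 0.24 (standard error 0.23, adjusted p = 0.571), and 0.44 (standard error 0.13, adjusted p = 0.00657) without descending control replicate 3. The interaction was 1.01 (standard error 0.38, adjusted p = 0.400), and 0.82 (standard error 0.29, adjusted p = 0.0603) without it. The control difference of *Angpt1* had an adjusted p of 0.0708 to 0.154 when any one of the other 5 libraries was left out and of 1.13e-06 without replicate 3. Of its 50-base exon sequences, 13.3% also occur in the antisense gene *Gm17473*, which had 0 counts in every library, and the strand setting of the counting is not given in the sources used here.

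Among the angiopoietins, *Angpt2* made up 87.2% ± 2.93 of the summed CPM per kb in descending and 79.9% ± 4.86 in ascending controls, and 7.74% ± 1.89 and 5.84% ± 0.596 with TGFβ (SD, n = 3). *Angpt4* took 57.4% ± 1.39 in treated descending and 86.5% ± 2.48 in treated ascending fibroblasts. *Angpt1* took 34.8% ± 3.28 and 7.68% ± 1.99 there. The ratio of *Angpt2* to *Angpt1*, per length of exon, was 12.1 to 13.5 in descending controls and 18.9 to 45.1 in ascending controls, where the 45.1 was that of replicate 2, with the high macrophage markers, and the other two were 18.9 and 20.1. It was 0.144 to 0.271 in treated descending and 0.687 to 0.994 in treated ascending libraries, so that *Angpt2* lay below *Angpt1* in all 6. The summed level went from 24.8 ± 3.39 to 5.77 ± 0.338 CPM per kb in descending fibroblasts and from 8.04 ± 1.07 to 8.03 ± 0.595 in ascending ones. Angiopoietin 1 is known as a product of mural cells. Of 6 mural markers, *Kcnj8* had 0 to 1 count per library. *Abcc9* had 0 to 3 counts in descending and 1 to 12 in ascending libraries. The other 4 passed the filter in both groups at each site. In ascending fibroblasts *Rgs5* and *Cspg4* rose and *Myh11* and *Notch3* fell, against 55.8% of all genes called. In descending fibroblasts *Rgs5* rose and *Notch3* fell against 8.07%, or 3 rose and 1 fell against 52.9% without descending control replicate 3. All 4 were lower in treated ascending than in treated descending fibroblasts, against 18.2% of all genes. The 6 markers summed to 220.1 to 364 in descending controls, 541 to 613 in treated descending, 213 to 237 in ascending controls and 256 to 275 normalized CPM in treated ascending fibroblasts, and their part in these levels was not tested.

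*Angptl4*, on chromosome 17 from 33773750 to 33781830, encodes a secreted inhibitor of lipoprotein lipase. It stood at 9.43, 8.50 and 9.45 normalized CPM in ascending controls and at 15.2, 16.5 and 19.2 with TGFβ. Descending controls held 8.45, 9.68 and 5.17 and treated descending libraries 14.4, 14.5 and 14.0. Treated libraries exceeded controls at both sites. The log2 fold change of *Angptl4* was 0.89 in ascending (standard error 0.10, adjusted p = 1.29e-06) and 0.87 in descending fibroblasts (standard error 0.26, adjusted p = 0.105), or 0.67 (standard error 0.12, adjusted p = 1.63e-05) without descending control replicate 3. The site difference with TGFβ was 0.25 (standard error 0.09, adjusted p = 0.0384), and it did not pass under 7 of 12 alternatives, with adjusted p of 0.0565 to 0.761. These were 12 libraries in one fit, DESeq2, and leaving out ascending TGFβ replicate 2 or 3 (0.278 without replicate 3) or any descending TGFβ library. The interaction was 0.02 (standard error 0.28, adjusted p = 0.975), and 0.23 (standard error 0.15, adjusted p = 0.388) without descending control replicate 3.

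Genes of lipid handling were read beside *Angptl4*. Counts for this and the further lists cover only genes that passed the filter on low counts in both groups compared. Of 7 lipase and PPAR genes, 6 did in ascending fibroblasts, where 2 rose and 3 fell against 55.8% of all genes called, and 6 in descending fibroblasts, where 1 rose and 1 fell against 8.07%. With descending control replicate 3 left out, 2 rose and 4 fell of 6, against 52.9%. *Lpl*, the lipase that *Angptl4* inhibits, fell, with log2 fold changes of -2.57 in ascending (adjusted p = 1.50e-06) and -2.04 in descending fibroblasts (adjusted p = 0.00209), or -1.94 (adjusted p = 1.13e-20) without that library. Its ascending controls held 21.0, 56.4 and 24.7 normalized CPM, the highest in replicate 2, where the macrophage markers were also highest and the adipocyte markers summed to 14.7 against 4.09 and 4.87. Without that replicate the ascending log2 fold change of *Lpl* was -2.002 (4.005-fold in place of 5.94-fold, adjusted p = 4.52e-15). *Plin2*, which coats lipid droplets, rose with log2 fold changes of 1.47 and 1.24 (adjusted p = 2.29e-12 and 0.00368), the latter 1.19 (adjusted p = 3.17e-17) without descending control replicate 3. *Pdk4*, a kinase that limits glucose oxidation, rose by 0.47 in ascending fibroblasts (adjusted p = 2.40e-06) and had a change of -0.10 in descending ones (adjusted p = 0.714), or -0.19 (adjusted p = 0.0444) without that library. *Pparg*, the master regulator of fat cells, had changes of 0.10 and -0.54 (adjusted p = 0.474 and 0.228) and -0.74 (adjusted p = 5.12e-08) in descending fibroblasts without that library. The adipocyte marker sum fell beside *Lpl*, from 75.7 to 113 in descending controls to 25.0 to 45.3 with TGFβ and from 4.09 to 14.7 in ascending controls to 2.19 to 2.60. Of 6 macrophage markers, 5 passed the filter on low counts in both ascending groups. All 5 fell with TGFβ, against 27.6% of all genes tested, and 4 of these 5 did without ascending control replicate 2. The part of these cells in the change of *Lpl* was not tested.

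*Ptprb*, on chromosome 10 from 116275523 to 116389535, rose at both sites and to a higher level in descending fibroblasts. Controls held 16.7, 18.3 and 16.1 normalized CPM in descending and 16.3, 16.6 and 17.5 in ascending fibroblasts. With TGFβ it stood at 176, 192 and 183 in descending and at 69.6, 63.1 and 61.8 in ascending fibroblasts. The controls of the sites overlapped, descending control replicate 3 lay among them, and the treated groups were far apart. The rise was 10.7-fold in descending (log2 fold change 3.42, standard error 0.12, adjusted p = 0.000407) and 3.85-fold in ascending fibroblasts (1.94, standard error 0.06, adjusted p = 7.96e-14). Leaving out descending control replicate 3 gave a descending log2 fold change of 3.40 for *Ptprb* (standard error 0.07, adjusted p = 3.99e-26). With TGFβ *Ptprb* was 2.83-fold lower in ascending fibroblasts (log2 fold change -1.50, standard error 0.05, adjusted p = 2.07e-20). The interaction was -1.48 (standard error 0.12, adjusted p = 0.000765), and -1.45 (standard error 0.09, adjusted p = 1.02e-10) without descending control replicate 3. Of the 3 interactions that passed with the 12 libraries, that of *Ptprb* also passed when any single library was left out, with adjusted p of at most 0.00760.

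*Tek*, which encodes the receptor Tie2 on which the phosphatase acts, moved the other way. It stood at 23.8, 24.9 and 23.9 normalized CPM in descending controls and 23.6, 25.7 and 23.7 in ascending controls. With TGFβ it stood at 7.71, 9.27 and 8.70 in descending and at 3.60, 4.73 and 4.04 in ascending fibroblasts. The log2 fold change of *Tek* was -1.51 in descending (standard error 0.15, adjusted p = 0.00403) and -2.56 in ascending fibroblasts (standard error 0.10, adjusted p = 1.89e-12). Its interaction was -1.06 (standard error 0.18, adjusted p = 0.0228). The descending change and the interaction of *Tek* were -1.51 and -1.05 without descending control replicate 3 (adjusted p = 2.90e-13 and 1.72e-05). *Tie1*, the orphan partner of Tie2, had 0 counts throughout. The endothelial marker sum, of which *Tek* was the largest part in every control library, was 25.9 to 27.7 in descending and 25.0 to 28.7 in ascending controls, and 13.6 to 16.1 and 9.25 to 11.4 with TGFβ. Of its 11 genes, 4 to 5 were at or under the floor in every library of a group. *Erg*, an endothelial transcription factor, had 0 counts in every descending control and 1, 4 and 0 counts in ascending controls. It had 55, 70 and 58 counts in treated descending and 68, 62 and 108 in treated ascending libraries. It passed the filter on low counts only through the treated groups, so these counts are given with no test. The part of endothelial cells in the levels of *Ptprb* was not tested.

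**Figure D4:**
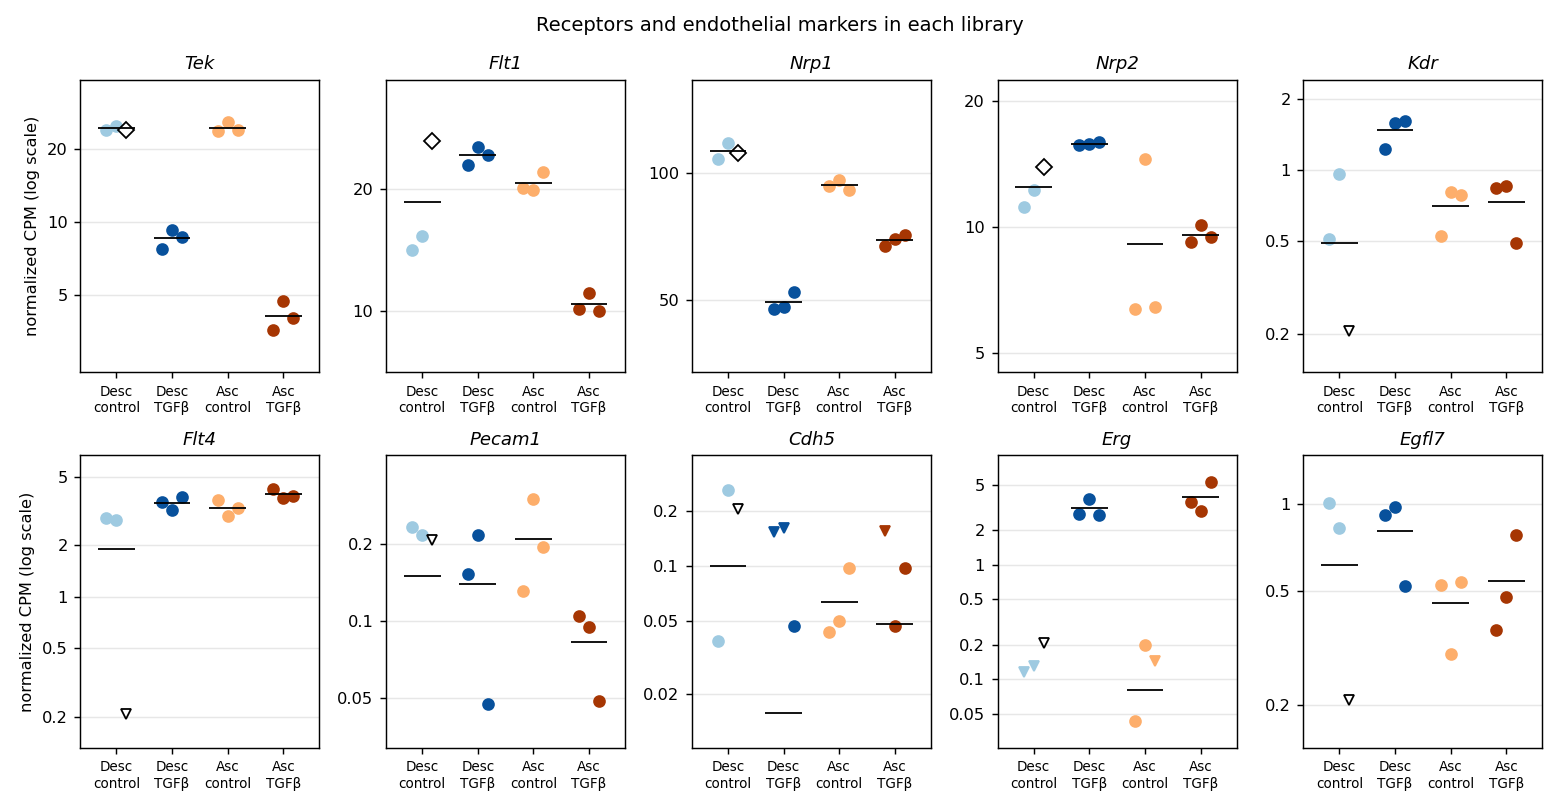
Normalized CPM, on log axes that differ between panels, of receptors for the ligands (*Tek*, *Flt1*, *Nrp1*, *Nrp2*, *Kdr*, *Flt4*) and of endothelial markers in each library. Symbols are libraries, lines group means, open symbols descending control replicate 3, and downward triangles counts of 0 drawn at the floor. *Tek* drops with TGFβ at both sites, *Erg* rises from 0 to 4 counts in control libraries to 55 to 108 in treated ones, and *Pecam1* stays at or below 0.300 normalized CPM.

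Of 7 receptor and co-receptor genes of the VEGF ligands and angiopoietins, *Tek* included, 0 rose and 3 fell of 5 in ascending fibroblasts (*Flt1*, *Nrp1* and *Tek*), against 55.8% of all genes called. In descending fibroblasts 0 rose and 2 fell of 4 (*Nrp1* and *Tek*) against 8.07%, or 3 rose and 2 fell of 6 against 52.9% without descending control replicate 3. *Flt1*, the receptor for *Vegfa*, *Vegfb* and *Pgf*, fell from 20.6 ± 1.12 to 10.4 ± 0.573 normalized CPM (SD, n = 3) in ascending fibroblasts (log2 fold change -0.997, standard error 0.08, adjusted p = 2.22e-08). In descending fibroblasts its change was 0.38 (standard error 0.27, adjusted p = 0.451), and 0.72 (standard error 0.09, adjusted p = 1.28e-07) without that library. The interaction of *Flt1* was -1.38 (adjusted p = 0.0619), and -1.71 (adjusted p = 2.76e-10) without it. *Nrp1*, a co-receptor for *Vegfa*, fell at both sites, with log2 fold changes of -0.44 in ascending (adjusted p = 2.73e-07) and -1.197 in descending fibroblasts (adjusted p = 0.00376) and an interaction of 0.76 (adjusted p = 0.0111). Without that library its descending change was -1.19 and its interaction 0.76 (adjusted p = 1.93e-16 and 7.37e-08). *Nrp2*, a co-receptor for *Vegfc*, was lower in treated ascending than in treated descending fibroblasts by a log2 fold change of -0.72 (adjusted p = 5.26e-07), and its ascending controls held 6.35, 14.5 and 6.43 normalized CPM, the highest in the library with the high macrophage markers. The ascending change of *Nrp2* was 0.08 (adjusted p = 0.804), and 0.58 (adjusted p = 0.000575) without that control.

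Of 10 genes that process or modulate these ligands, 4 rose and 1 fell of 8 in ascending fibroblasts, against 55.8% of all genes called. In descending fibroblasts 2 rose and 0 fell of 7 against 8.07%, or 5 rose and 1 fell of 8 against 52.9% without descending control replicate 3. *Thbs1* and *Thbs2*, which encode the angiogenesis inhibitors thrombospondin 1 and 2, rose, with log2 fold changes of 1.07 and 0.75 in ascending (adjusted p = 9.26e-15 and 3.17e-09) and of 0.75 and 0.73 in descending fibroblasts (adjusted p = 0.00678 and 0.0138), the latter 0.77 and 0.72 without that library (adjusted p = 1.09e-14 and 1.19e-12). Both were lower in ascending controls, by log2 fold changes of -1.61 and -0.71 (adjusted p = 0.00192 and 0.0424), or -1.59 and -0.72 without it (adjusted p = 6.03e-13 and 1.44e-06). *Svep1*, a matrix protein reported to bind Tie receptors and angiopoietins, fell by 0.99 in ascending fibroblasts (adjusted p = 1.31e-09) and had a change of -0.03 in descending ones (adjusted p = 0.958), or -0.22 without that library (adjusted p = 0.00148), with an interaction of -0.96 (adjusted p = 0.144) and -0.76 without it (adjusted p = 3.64e-06). *Pcsk5*, a proprotein convertase, had changes of 0.06 in ascending (adjusted p = 0.494) and 1.31 in descending fibroblasts (adjusted p = 0.0592), the latter 1.73 (adjusted p = 4.42e-16) without that library.

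Of 6 further angiopoietin-like genes, 0 rose and 3 fell of 4 in ascending fibroblasts, against 55.8% of all genes called. In descending fibroblasts 0 rose and 2 fell of 2 against 8.07%, or 1 rose and 2 fell of 3 against 52.9% without descending control replicate 3. *Angptl2*, a secreted factor of mesenchymal cells, went from 155 ± 1.07 to 87.3 ± 4.49 normalized CPM (SD, n = 3) in ascending (log2 fold change -0.84, adjusted p = 2.90e-11) and had a change of -1.12 in descending fibroblasts (adjusted p = 0.0357), or -1.32 (adjusted p = 9.22e-19) without that library. *Angptl1* had changes of -0.80 and -3.26 (adjusted p = 0.00184 and 0.0122), the latter -2.75 (adjusted p = 1.18e-13) without it. *Angptl7* fell by 1.000 in ascending fibroblasts (adjusted p = 0.00652). It had 7, 8 and 0 counts in descending controls and 25, 19 and 17 with TGFβ, and since it entered that comparison only through the treated group, these counts are given with no test. *Angptl6* had a change of -0.20 in ascending fibroblasts (adjusted p = 0.613), and rose by 0.88 in descending fibroblasts (adjusted p = 0.0128) without descending control replicate 3.

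*Vegfa* and *Angptl4* are known targets of hypoxia-inducible factors, so the other hypoxia genes were read beside them. Of 10 listed, 9 symbols were in the table. In ascending fibroblasts 2 rose and 4 fell of 8 against 55.8% of all genes called. In descending fibroblasts 1 rose and 1 fell of 8 against 8.07%, or 4 rose and 1 fell of 8 against 52.9% without descending control replicate 3. *Epas1*, which encodes hypoxia-inducible factor 2α, fell, with log2 fold changes of -3.67 in ascending (adjusted p = 5.07e-18) and -3.79 in descending fibroblasts (adjusted p = 0.00156), or -3.57 (adjusted p = 7.47e-25) without that library. *Hif1a*, which encodes hypoxia-inducible factor 1α, rose by 0.43 in ascending fibroblasts (adjusted p = 1.06e-06) and had a change of -0.44 in descending ones (adjusted p = 0.604), which was 0.28 (adjusted p = 0.000163) without that library. *Slc2a1*, a glucose transporter, rose by 0.18 and 0.94 (adjusted p = 0.0248 and 0.0393), the latter 0.78 (adjusted p = 2.70e-10) without it. *Ndrg1*, a stress-response gene, had changes of -0.13 and 0.20 (adjusted p = 0.187 and 0.498), the latter 0.34 (adjusted p = 0.000490) without it. The part of these factors in the levels of *Vegfa* and *Angptl4* was not tested.

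For the 5 genes with an interaction in either set of libraries, the genes with the most similar pattern were found by Pearson's r of log2 normalized CPM over the 12 libraries. These r values describe libraries that share groups and carry no p. *Ptprb* was most like *Parm1* (0.990), *Tgfb1*, which encodes TGFβ1 itself (0.988), and *Epn2* (0.987). *Angpt2* was most like *Fmo2* (0.993), *Tgfbr3*, which encodes a TGFβ co-receptor (0.992), and *Mapre2* (0.988). *Vegfc* was most like *Shb* (0.989), *Hr* and *Nbeal2*, *Angpt4* like *Tmem183a* (0.981), *Stx1a* and *D10Wsu102e*, and *Vegfa* like *Rara* (0.988), *Nqo1* and *Chd3*. Without descending control replicate 3 the r values of the 15 pairs ranged from 0.959 to 0.993.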

How the data were processed

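RNA of 12 cultures, 3 per group of site and treatment, was sequenced by the authors. After alignment to mm10, the authors counted reads on genes with featureCounts, and the deposited values are whole counts by gene symbol, not normalized. STAR, FastQC and DESeq2 are named in the submitters' processing notes. Their versions, the strand setting and the treatment of reads matching several genes are not given in the sources used here. The labels give an age of 14 weeks, which differs from the study's methods.

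Tests were run with edgeR 4.0.16 and DESeq2 1.42.0 (R 4.3.3). Libraries were grouped by the labels. Each comparison of 2 groups was fitted on its 6 libraries and the interaction on 12 libraries with 4 group means, by edgeR's quasi-likelihood F-test (two-sided) with TMM normalization, filterByExpr (minimum count 10, minimum total 15) and Benjamini-Hochberg adjustment over all genes tested, at a threshold of 0.05. The standard error was the log2 fold change divided by the square root of F. All 10 members were named, and from each further list the 4 genes with the smallest adjusted p over the comparisons. For likeness, 2 prior counts were added before the log2 scale. The members and lists were chosen with earlier results of these data known. Positions, exon lengths and shared 50-base sequences came from GENCODE vM21. The fits were tested on simulated data. No 2 libraries held identical values. Other settings tried were the Wald test of DESeq2, its size factors within edgeR, no filter, at least 10 counts in every library, a replicate block, 12 libraries in one fit and leaving out each library. Values given first use every library.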

Additional observations from a re-analysis of the deposited data

Results flagged for a closer look

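The response to TGFβ differed between ascending and descending fibroblasts for 3 of the 10 genes, by the test of the difference itself over the 12 libraries (edgeR's quasi-likelihood test, Benjamini-Hochberg adjusted), against 0.806% of all genes. The interaction was -1.48 on the log2 scale for *Vegfc*, which rose in descending and fell in ascending fibroblasts. It was 1.81 for *Angpt2*, which fell further in descending fibroblasts from a higher control level, with 22 to 39 counts per treated library at either site. It was -1.48 for *Ptprb*, which rose further in descending fibroblasts from controls that overlapped. Leaving out a single library other than descending control replicate 3 gave adjusted p of up to 0.0715 for *Vegfc* and 0.0784 for *Angpt2*, both above 0.05, and of at most 0.00760 for *Ptprb*. With a replicate block *Ptprb* alone of the 3 passed (0.0109, against 0.0572 and 0.0614). The cause of these differences was not tested.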

How the results depend on the processing

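Of the log2 fold changes of the 10 genes under the alternatives, 552 kept their direction and their side of the threshold, 59 no longer passed, 16 newly passed and 20 changed sign, the last in comparisons in which the gene had not passed. With the 12 libraries in one fit, 8 in place of 5 genes passed for TGFβ in descending fibroblasts and 4 in place of 7 between the treated sites. The replicate numbers did not pair the libraries (r of -0.026 to 0.088 over 18 pairs, 6 of 18 highest with their own number). With a replicate block, 3 genes passed in descending fibroblasts, 1 for the interaction (in place of 3) and 0 between controls (in place of 3), where 4 of the 10 had an unadjusted p under 0.05 and DESeq2 without a block called 4. Leaving out one library gave 9 to 10 genes in ascending and 3 to 10 in descending fibroblasts, 0 to 4 between controls, 6 to 7 between treated sites and 1 to 5 for the interaction, with the highest counts in descending fibroblasts, between controls and for the interaction all without descending control replicate 3.

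Signs changed between controls for *Angpt4* with the block (0.019) and for *Pgf* with DESeq2's size factors (0.0011), DESeq2 (0.017) and the block (0.56). With one library left out, ranges that crossed 0 were, between controls, -0.36 to 0.30 for *Angpt4*, -0.55 to 0.78 for *Pgf*, -0.046 to 0.039 for *Ptprb* and -0.31 to 0.078 for *Vegfd*. Between treated sites they were -0.11 to 0.22 for *Angpt2* and -0.045 to 0.039 for *Vegfd*, and for the interaction -0.16 to 0.23 for *Angptl4* and -0.079 to 0.30 for *Vegfd*. The cause was not tested.

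Over all genes, the calls in ascending fibroblasts were 7767, and 2338 with 12 libraries in one fit. In descending fibroblasts they were 1115, and 2531 with DESeq2, 95 with the block, 3570 with 12 libraries and 213 to 7576 with one library left out. Between controls they were 374, and 1151, 0 (1235 at an unadjusted p under 0.05), 1545 and 33 to 4631. Between treated sites they were 4963, and 1106 with 12 libraries. For the interaction they were 118, and 497 with DESeq2, 56 without a filter, 50 with the block and 25 to 2022. *Pgf* could not be tested in fits with descending controls when 10 counts were required in every library, and low counts limit its precision. The block moved the median change of all genes to 0.10 in descending fibroblasts and between controls.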
